A study of Mus musculus with 2 samples.

Results

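The regions described here are the Tcf1 peaks around 9 genes of calcium release and calcium entry in mouse naïve CD8+ T cells, Itpr1, Itpr2, Itpr3, Itpkb, Stim1, Stim2, Orai1, Orai2 and Atp2b4. A deposited peak was a member when its summit lay in the gene body or within 100 kb of either gene end, in the GENCODE vM1 annotation of the mm9 build. This rule took 112 of the 22286 deposited peaks, and no pair of the 9 windows overlapped. The genes were chosen by hand with earlier results of this peak list known, the strong distal peak near Itpr2 among them, so peak height and the presence of a peak near these genes are given as a description, with no test.

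Tcf1, the product of Tcf7, is a transcription factor of the Tcf/Lef family. ChIP-seq was made with a rabbit antiserum against Tcf1 on CD8+ T cells sort-purified from spleen as GFP+ TCRbeta+ CD62Lhi CD44lo-med. There was 1 wild type (WT) library and 1 library of Tcf1-deficient cells, which the authors used as the control for peak calling. The genotype of the control differs between sources. The sample title calls these cells Tcf1-deficient, the genotype label reads Tcf1-/-Lef1-/-, the design text names hCD2-Cre with a GFP reporter in Rosa26 and floxed alleles of both factors, and the methods of the study name Cd4-Cre+ Tcf7 fl/fl mice. Whether Lef1 was also absent in the control cells therefore stayed unsettled here. Mice were 6 to 12 weeks of age, of both sexes, and how many animals went into each library was not given in the sources used here. After removal of duplicates the WT library kept 36938606 fragments and the control library 27625250. With 1 library in each group no replicate check was possible, and no interval below covers the spread between libraries. Intervals of pileups and fold enrichments cover counting error only. Those of shares and medians treat the peaks as independent draws, although many lay close together. A peak height in a bulk sample cannot tell apart binding in more cells from more binding per cell.

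In T cells, engagement of the antigen receptor activates phospholipase C gamma, which releases inositol trisphosphate (IP3) from a membrane lipid. IP3 opens IP3 receptors (Itpr1, Itpr2 and Itpr3) in the endoplasmic reticulum, and Itpkb ends this signal by turning IP3 into inositol tetrakisphosphate, a molecule with functions of its own in developing lymphocytes. The loss of stored calcium is sensed by Stim1 and Stim2, which open the Orai channels of the plasma membrane, and Atp2b4 encodes a plasma membrane pump that moves calcium back out.

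The sequences at the summits that carry the description are printed first. They run 5′ to 3′ on the forward strand of mm9, centred on the summit, reaching 100 bases to each side for Itpr2 and 50 for the others, with capitals for any match on either strand to the Tcf/Lef core ATCAAAG, its 6-base form TCAAAG, a Runx core TGTGGTT or an ETS core CGGAAGT. The strongest peaks of 8 genes are shown, and for Itpr3 the peak in its own promoter.
Itpr2, distal, chr6:146029677-146029877: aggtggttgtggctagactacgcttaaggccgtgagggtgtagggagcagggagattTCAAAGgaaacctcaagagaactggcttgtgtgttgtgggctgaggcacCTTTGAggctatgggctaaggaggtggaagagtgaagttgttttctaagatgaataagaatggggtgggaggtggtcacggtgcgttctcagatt
Itpr1, intron, chr6:108485449-108485549: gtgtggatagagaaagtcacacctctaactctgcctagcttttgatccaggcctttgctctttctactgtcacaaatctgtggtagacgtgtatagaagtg
Itpr3, own promoter, chr17:27193304-27193404: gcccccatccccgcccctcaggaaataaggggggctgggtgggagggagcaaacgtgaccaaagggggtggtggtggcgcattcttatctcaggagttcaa
Itpkb, intron, chr1:182266049-182266149: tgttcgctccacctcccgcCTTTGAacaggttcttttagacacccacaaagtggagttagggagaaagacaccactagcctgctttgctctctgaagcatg
Stim1, intron, chr7:109486593-109486693: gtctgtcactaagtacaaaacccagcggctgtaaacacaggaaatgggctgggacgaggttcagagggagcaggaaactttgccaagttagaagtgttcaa
Stim2, upstream, chr5:54386600-54386700: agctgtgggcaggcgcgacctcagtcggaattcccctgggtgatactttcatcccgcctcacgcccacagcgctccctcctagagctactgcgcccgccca
Orai1, Kdm2b promoter, chr5:123440568-123440668: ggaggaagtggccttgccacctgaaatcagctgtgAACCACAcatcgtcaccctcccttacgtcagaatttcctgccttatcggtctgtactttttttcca
Orai2, intron, chr5:136631257-136631357: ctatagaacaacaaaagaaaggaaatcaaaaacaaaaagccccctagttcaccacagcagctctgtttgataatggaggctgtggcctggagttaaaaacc
Atp2b4, intron, chr1:135608093-135608193: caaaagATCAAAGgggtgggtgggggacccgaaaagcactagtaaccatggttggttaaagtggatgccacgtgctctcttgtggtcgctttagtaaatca
Of these 9 summits only that of Atp2b4 had the exact Tcf/Lef core in the printed stretch. The Itpr2 summit had the 6-base form once on each strand, the Itpkb summit had it once, and the Orai1 summit had a Runx core on the reverse strand. Within 100 bp of the summit, the window used for all counts below, the Orai1 peak also had the 6-base form and the Itpr1 peak a Runx core.

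Across the 9 windows, 102 of the 112 peaks were high-confidence, meaning a fold enrichment of at least 4 with p under 1e-05 and q under 0.05. The fold enrichment is the WT pileup over the control level, each plus 1, where the pileup is the number of fragments over the summit. The share was 91.1% (84.2 to 95.6, exact binomial 95% interval), and over the whole list it was 85.4%. The median fold enrichment of the 102 peaks was 7.87 (95% interval of the median 7.01 to 9.22), and that of all 19042 high-confidence peaks was 6.86. Their pileup ran from 25 to 805 fragments with a median of 51, against 44 over all. The median width was 532 bp, with a range from 185 to 2336 bp.

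**Figure D1:**
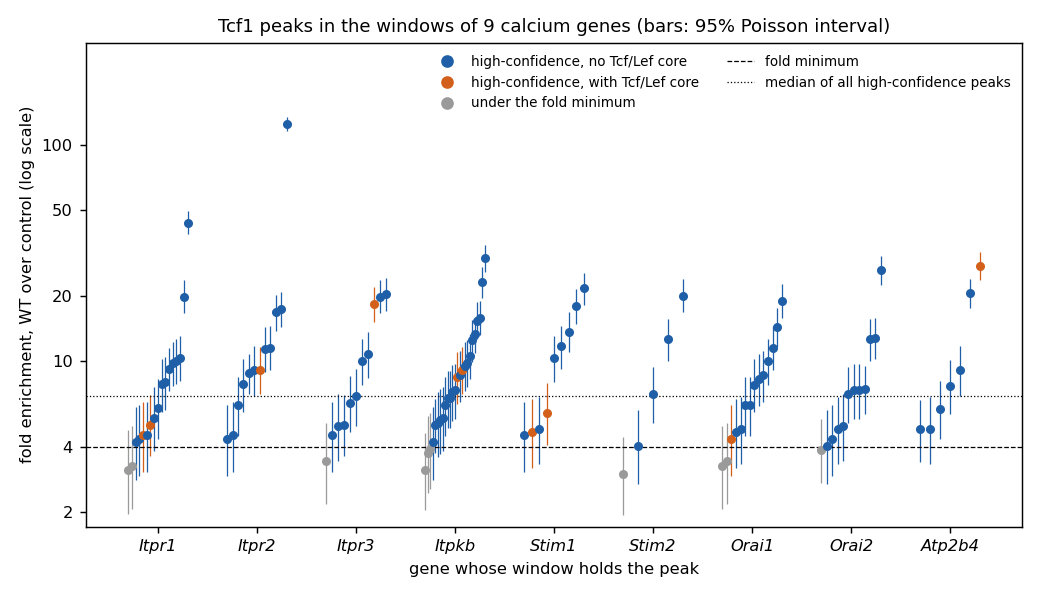
Fold enrichment (log scale) of each of the 112 peaks, by the gene whose window holds it, with the 95% Poisson interval of the WT pileup. The dashed line is the fold minimum of 4 and the dotted line the median of all high-confidence peaks, 6.86. The distal Itpr2 peak at 126 and the Itpr1 intron peak at 43.9 stood above all others.

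The control level at the 102 summits was low. It sat at the genome-wide floor of 5.42 fragments, below which the peak caller does not go, at 84 peaks (82.4%, 73.6 to 89.2), and over all high-confidence peaks at 86.3%. At the other 18 it reached at most 8.69 fragments. At the summits on the floor the fold enrichment was set by the WT pileup alone, and a fold enrichment of 4 needed a pileup of 25.

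**Figure D2:**
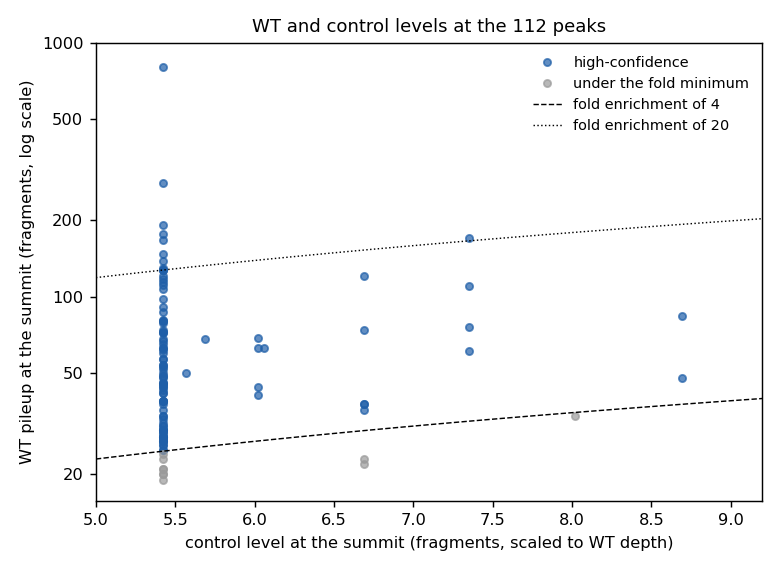
WT pileup (log scale, fragments) against the control level (fragments, scaled to WT depth) at the 112 summits, with lines at a fold enrichment of 4 and of 20. Most summits stood in 1 column at the floor of 5.42, and no summit had a control level over 8.69.

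A fold enrichment of 20 or more was found at 10 of the 102 peaks (9.80%, 4.80 to 17.3), against 7.98% of all high-confidence peaks. These strong peaks were spread over the windows of 8 of the 9 genes, with Orai1 just under at 19. Of 22350 protein-coding genes, 19.3% had a peak this strong in the same kind of window. The 9 genes had a median body of 98.4 kb, against 15.4 kb over all protein-coding genes, so most of their windows were longer. Whether length bears on the share of strong peaks was not tested. Per 100 kb of window, the 9 genes held from 1.24 to 7.47 high-confidence peaks with a median of 2.79, and the median over all protein-coding genes was 1.11.

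All 9 genes had a high-confidence peak in the window and in the gene body. Over all protein-coding genes, whose bodies are shorter at the median, the shares were 75.2% and 25%, with no matching for length. Within 1 kb of an annotated start site of their own, 5 genes had such a peak (Itpr1, Itpr3, Itpkb, Orai1 and Orai2), and 32.8% of all protein-coding genes did.

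By pileup of the strongest peak, the order of the genes was Itpr2 (805), Itpr1 (281), Itpkb (192), Atp2b4 (176), Orai2 (168), Stim1 (138), Itpr3 (130), Stim2 (128) and Orai1 (121). The Itpr2 peak was 2.86 times the Itpr1 peak, a value the choice of genes used, and the Itpr1 peak was 1.46 times the Itpkb peak. From Itpkb down, neighbours in the order had ratios from 1.02 to 1.22, within counting error. This order is that of the strongest peak in the window, which for Itpr3 and Orai1 lay in the promoter of another gene and for Itpr2 lay past the 3′ end. In a window from 50 kb upstream to the gene end, the strongest Itpr2 peak had a fold enrichment of 17.5 (14.4 to 21.0), the lowest of the 9 genes, with an interval that overlapped those of Orai1, Itpr3, Stim2 and Stim1.

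**Figure D3:**
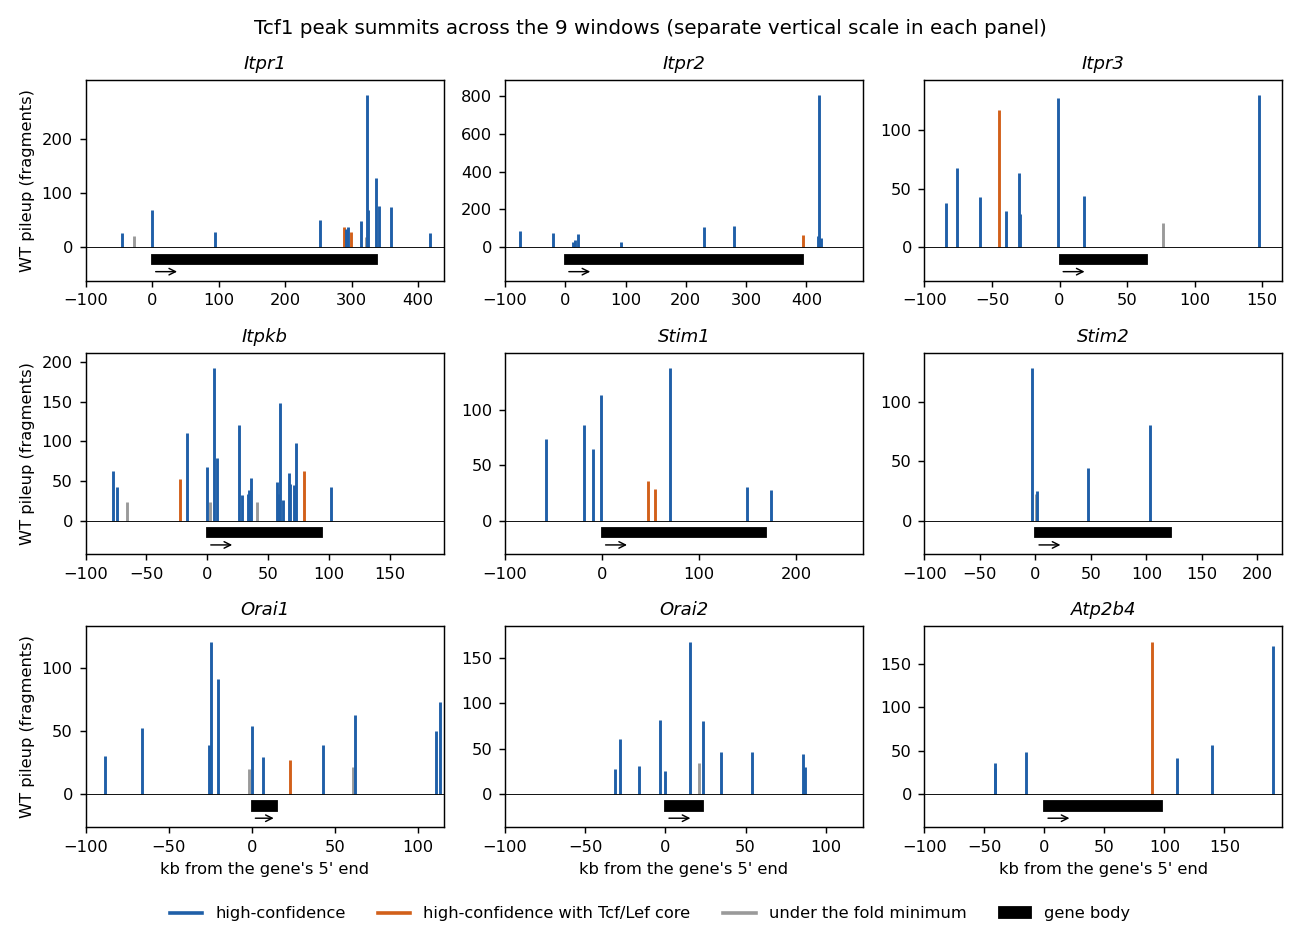
WT pileup (fragments) at each peak summit against its distance in kb from the 5′ end of the gene, in 1 panel for each of the 9 windows, each with its own vertical scale. The black bar is the gene body, and the arrow its direction. Peaks stood along intron 2 of Itpkb, gathered toward the 3′ end of Itpr1, and for Itpr2 stood highest past the 3′ end.

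Of the IP3 receptors, Itpr2 had the highest single peak in its window. That peak lay outside the gene and was known when the genes were chosen. Itpr2 (ENSMUSG00000030287.8, chromosome 6, 146056821 to 146450745, minus strand) had 12 deposited peaks, all of them high-confidence. The distal peak at chr6:146028405-146030236 was 1832 bp wide. It had 805 WT fragments at the summit (750 to 863) where the control level was 5.42, a fold enrichment of 126 (117 to 135). Its rank among all deposited peaks was 3 by fold enrichment and 42 by pileup. It was intergenic, 27.0 kb past the 3′ end of Itpr2 and 421 kb from the 5′ end of the gene. The closest annotated start site was that of a short internal Itpr2 transcript, 66.0 kb away. On the other side the nearest gene was Sspn, which encodes sarcospan, with its body 116 kb and its 5′ end 150 kb away.

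This distal peak had company. Smaller summits stood 25.6 kb and 30.9 kb past the 3′ end, with pileups of 57 and 49 fragments, and a summit with the exact core stood 0.531 kb past it, with a pileup of 63 against 6.06 and a fold enrichment of 9.06 (7 to 11.6). Inside the gene were 6 peaks, all in introns, of which those in introns 45 and 37 were the highest, with fold enrichments of 17.5 (14.4 to 21.0) and 16.8 (13.8 to 20.3). Intron 1 held 3 peaks between 12.1 kb and 20.6 kb from the 5′ end, with fold enrichments from 4.52 to 11.4. A peak 19.9 kb upstream of the gene had a fold enrichment of 11.5. No deposited peak lay within 1 kb of an Itpr2 start site.

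Itpr1 (ENSMUSG00000030102.7, chromosome 6, 108163112 to 108501103, plus strand) had 17 deposited peaks and 15 high-confidence ones. The promoter peak, 33 bp upstream of the 5′ start, had a pileup of 69 fragments (53.7 to 87.3) against 6.02 and a fold enrichment of 9.98. Of the 10 peaks in the body, 8 lay in introns 53 to 61, in the last 50 kb before the 3′ end. The strongest was at chr6:108485186-108485916 in intron 60, with a pileup of 281 (249 to 316) against 5.42, a fold enrichment of 43.9 (39.0 to 49.4) and a Runx core in its window. A peak 1.58 kb away had a fold enrichment of 10.3, and a peak in intron 61 reached 19.9 (16.7 to 23.7). Both also had a Runx core. The stretch between the promoter and intron 44 held a single peak, in intron 4, with a fold enrichment of 4.52.

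Past the 3′ end of Itpr1, summits at 2.71 kb and 20.3 kb had fold enrichments of 9.22 and 9.76. Their closest start site of any kind was that of Gm16433, a pseudogene, and their closest protein-coding start site that of Itpr1. A further summit at 79.8 kb stood closer to Bhlhe40, which encodes a basic helix-loop-helix repressor.

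Itpr3 (ENSMUSG00000042644.8, chromosome 17, 27194249 to 27259168, plus strand) had 11 deposited peaks and 10 high-confidence ones, but only 1 of these inside the gene, in intron 2 with a fold enrichment of 6.41. Its own promoter peak at chr17:27193047-27194320, with the summit 895 bp upstream of the start, was the strongest of the 5 own promoter peaks, with a pileup of 127 fragments (106 to 151) against 5.42 and a fold enrichment of 19.9 (16.7 to 23.7). The peak with the highest value in the window, 20.4 (17.1 to 24.2), lay 82.4 kb past the 3′ end and 151 bp from the start of Lemd2, which encodes a protein of the inner nuclear membrane. The values 20.4 and 19.9 did not differ beyond counting error.

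Upstream of Itpr3 there were 6 peaks in or at the start of Ggnbp1 and Bak1, the latter of which encodes a pore-forming protein of apoptosis, and 1 in the promoter of Zbtb9. A peak within Ggnbp1, 44.8 kb upstream of Itpr3, had a fold enrichment of 18.4 (15.2 to 22) with the exact Tcf/Lef core 3 bp from the summit. The peaks in the Bak1 promoter had fold enrichments of 9.97 and 4.52, and the Zbtb9 peak had 5.07.

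Itpkb, the IP3 kinase, had the most peaks. Itpkb (ENSMUSG00000038855.8, chromosome 1, 182260607 to 182354933, plus strand) had 25 deposited peaks and 22 high-confidence ones, of which 16 lay in the gene body. This came to 17 high-confidence peaks per 100 kb of body, against 1.02 to 8.62 for the other 8 genes. By the count in the gene body the rank of Itpkb was 9 of 22350 protein-coding genes. All 16 lay in intron 2, over 74.5 kb, with pileups from 26 to 192 fragments and a median of 51.

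The strongest Itpkb peak was at chr1:182265782-182266496, 5.49 kb from the 5′ end, with a pileup of 192 (166 to 221) against 5.42 and a fold enrichment of 30.1 (26.0 to 34.6). A second strong peak stood 59.9 kb into the gene with a pileup of 148 (125 to 174) and a fold enrichment of 23.2 (19.6 to 27.2). Peaks at 26.0 kb and 73.3 kb had fold enrichments of 15.9 and 15.4. The promoter peak, 47 bp upstream of the start, had a pileup of 67 fragments and a fold enrichment of 10.6 (8.25 to 13.4). Upstream summits at 16.2 kb and 22.5 kb had fold enrichments of 13.3 and 8.41, and the latter had both the Tcf/Lef and the Runx core.

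Neighbouring summits lay close in the Itpkb window, with a median gap of 3.46 kb, and 21 of its 22 high-confidence peaks had another within 10 kb. Over the 9 windows 66 of 102 (64.7%) did, against 49.1% of all high-confidence peaks, and 45 of 80 (56.2%) did without the Itpkb window. Without the Itpkb window the median fold enrichment of the remaining peaks was 7.79, against 7.87 with it. Gm5069, a protein-coding gene on the opposite strand, overlaps the Itpkb start, so for most intron 2 peaks the nearest start site was that of Gm5069.

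At the sensor genes the highest peaks stood upstream of the start or in the first intron. Stim1 (ENSMUSG00000030987.4, chromosome 7, 109416338 to 109585362, plus strand) had 9 peaks, all high-confidence, of which 4 were in the gene body. The strongest was at chr7:109486369-109486906 in intron 1, 70.3 kb from the start, with a pileup of 138 fragments (116 to 163) against 5.42 and a fold enrichment of 21.7 (18.2 to 25.6). The widest peak of all 112, 2336 bp at chr7:109414426-109416761, overlapped the Stim1 start, but its summit lay 1480 bp upstream, with a pileup of 114 (94 to 137) and a fold enrichment of 17.9 (14.8 to 21.5). By the summit it fell outside the promoter as defined here.

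Intron 1 of Stim1 also held both peaks of this window with the exact core, at 47.6 kb and 54.4 kb, with fold enrichments of 5.76 and 4.67. Promoter peaks of the neighbours Rhog, a small GTPase, Pgap2 and Rrm1, a subunit of ribonucleotide reductase, had fold enrichments of 13.7, 11.7 and 4.52.

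Stim2 (ENSMUSG00000039156.11, chromosome 5, 54389762 to 54512296, plus strand) had the fewest peaks, 5 deposited and 4 high-confidence. No other gene's promoter held a peak in its window. The strongest was at chr5:54386071-54387162, 3.11 kb upstream of the start, with a pileup of 128 fragments (107 to 152) against 5.42 and a fold enrichment of 20.1 (16.8 to 23.9). A peak in intron 3 reached 12.6 (10 to 15.7), a peak in intron 1 reached 7.01, and a peak 1.53 kb from the start was just over the minimum at 4.05. The only Stim2 peak within 1 kb of the start, at 722 bp, had the lowest fold enrichment of all members, 2.99 (1.92 to 4.46), with a pileup of 22 against 6.69.

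Most high-confidence peaks in the windows of the channel genes lay in or at the start of neighbouring genes. Orai1 (ENSMUSG00000049686.8, chromosome 5, 123465083 to 123480459, plus strand), the pore subunit of the calcium release-activated channel, had 14 deposited and 12 high-confidence peaks, of which 1 was in the body and 1 in the promoter. The promoter peak, 79 bp upstream of the start, had a pileup of 54 fragments (40.6 to 70.5) against 5.42 and a fold enrichment of 8.57 (6.48 to 11.1). The intron peak had a fold enrichment of 4.67. The peak with the highest value in the window was at chr5:123439862-123441024, 24.5 kb upstream of Orai1 and 786 bp from a start site of Kdm2b, a histone demethylase gene on the opposite strand, with a fold enrichment of 19 (15.8 to 22.7). A peak 20.5 kb upstream, also within Kdm2b, had 14.3, and both had a Runx core. Other peaks lay elsewhere in Kdm2b, in the promoters of Morn3 and Tmem120b and within Rhof.

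Orai2 (ENSMUSG00000039747.6, chromosome 5, 136623334 to 136646526, minus strand) had 12 deposited and 11 high-confidence peaks. The strongest was at chr5:136630928-136631662 in intron 2, with a pileup of 168 fragments (144 to 195) against 5.42 and a fold enrichment of 26.3 (22.5 to 30.6). Its window had a GC content of 35.8%, the lowest of the 102. The peak at the start site itself was the weakest of the 11, with a pileup of 25 (16.2 to 36.9) and a fold enrichment of 4.05. A peak 3.08 kb upstream had 12.8 (10.2 to 15.8) and a peak 0.504 kb past the 3′ end 12.6 (10 to 15.7). Promoter peaks of Rasa4, Polr2j, Alkbh4 and Prkrip1 had fold enrichments from 4.83 to 7.42.

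Atp2b4, the pump gene (ENSMUSG00000026463.10, chromosome 1, 135599255 to 135697618, minus strand), had 7 peaks, all high-confidence, and 1 of them in the body. That peak, at chr1:135607831-135608453 in intron 20, had a pileup of 176 fragments (151 to 204) against 5.42, a fold enrichment of 27.6 (23.7 to 31.9) and the exact Tcf/Lef core. It lay 89.5 kb from the 5′ end and 6363 bp from the start of a shorter transcript. A second strong peak stood 92.3 kb past the 3′ end, between the starts of the noncoding gene Gm17713 (25 bp) and of Snrpe (95 bp), which encodes a spliceosome protein. Its pileup of 171 stood against a control level of 7.35, for a fold enrichment of 20.6 (17.6 to 23.9). The promoter peaks of Zc3h11a and of Lax1, a membrane adaptor of lymphocytes, had 9.04 and 5.99. No deposited peak lay within 1 kb of an Atp2b4 start site, and the upstream peaks closest to one had fold enrichments of 7.63, 4.83 and 4.81.

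The own promoter peaks differed in height. Their fold enrichments were 19.9 for Itpr3, 10.6 for Itpkb, 9.98 for Itpr1, 8.57 for Orai1 and 4.05 for Orai2. Over all high-confidence promoter peaks the median was 6.54 and the upper quartile 9.19. The intervals of Itpkb, Itpr1 and Orai1 overlapped each other, that of Itpr3 (16.7 to 23.7) lay above all of them, and that of Orai2 (2.68 to 5.91) lay below.

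By placement, 28 of the 102 peaks lay in a promoter, within 1 kb of an annotated start site (27.5%, 19.1 to 37.2), against 39.6% of all high-confidence peaks. Of these, 5 were in a promoter of the 9 genes and 23 in that of another gene. Another 55 (53.9%, 43.8 to 63.8) lay elsewhere in some gene body and 19 (18.6%, 11.6 to 27.6) between genes, against 33.0% and 27.4% over all. The windows were drawn around genes that are mostly long, and whether this bears on these shares was not tested. The bodies of the 9 genes filled 42.3% of the window length and held 44 of the 102 peaks (43.1%, 33.4 to 53.3). Of these 44, 43 lay in an intron of the reference transcript. The nearest annotated start site was that of the gene itself for 40 peaks (39.2%, 29.7 to 49.4), and for 46 when only protein-coding genes were counted.

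The exact Tcf/Lef core lay within 100 bp of the summit at 10 of the 102 peaks (9.80%, 4.80 to 17.3), and at 10.2% of all high-confidence peaks. In windows of the same size 2 kb to each side it was found in 6 of 204 (2.94%, 1.09 to 6.29). The 6-base form, which the core contains, was found at 29 peaks (28.4%, 19.9 to 38.2) against 26.4% over all, the Runx core at 20 (19.6%, 12.4 to 28.6) against 15.5%, and the ETS core at 4 (3.92%, 1.08 to 9.74) against 6.93%. The core read backwards, GAAACTA, was found at 2 peaks (1.96%). For each of these motifs the interval of the 102 peaks included the share over all peaks.

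**Figure D4:**
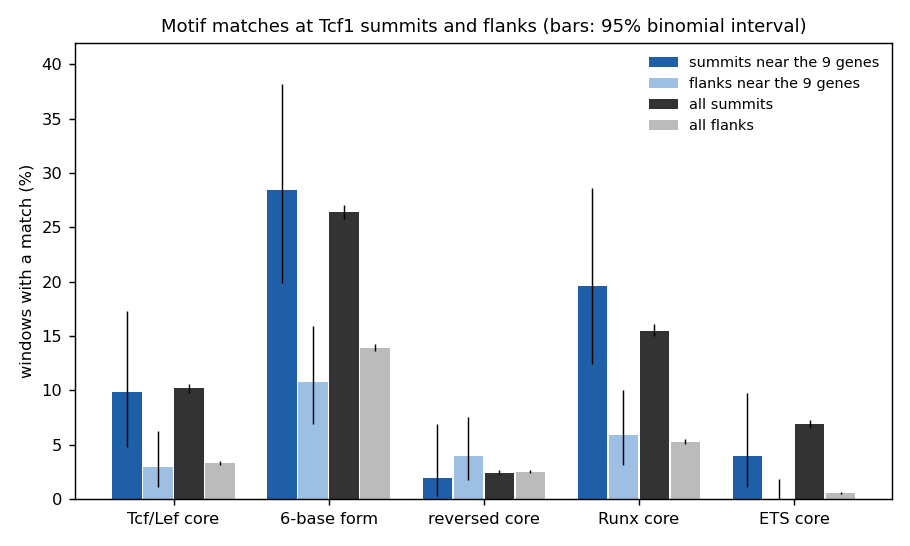
Share (%) of windows reaching 100 bp to each side with a match, at the summits and at flanks 2 kb away, for the 102 high-confidence peaks near the 9 genes and for all high-confidence peaks, with exact binomial 95% intervals. The Tcf/Lef core stood at 9.80% near the 9 genes and 10.2% over all.

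The exact core was found at low and at high peaks. Of the 10 strong peaks, 1 had the exact core, that of Atp2b4, and 6 had the 6-base form (60%, 26.2 to 87.8). Over all high-confidence peaks of that height 20.6% had the exact core and 45% the 6-base form. Between a fold enrichment of 4 and 6 the core was found at 5 of 31 member peaks (16.1%) against 7.88% over all. Between 6 and 10 it was found at 3 of 37 (8.11%) against 8.36%. Between 10 and 20 it was found at 1 of 24 (4.17%) against 13.7%. These counts are small, and the difference in trend was not tested. The peaks with the core had a median fold enrichment of 7.09 (4.52 to 18.4) and those without it 7.87 (7.01 to 9.76). These intervals overlapped, so the member peaks gave no clear order. Over all high-confidence peaks the median was higher with the core, at 8.57 (8.26 to 8.88), than without it, at 6.70 (6.70 to 6.84).

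For each of the 10 peaks the core closest to the summit is shown in 41 bases, turned so that the core reads ATCAAAG, with the core in capitals. They are listed to let the bases around the core be compared. The first of the Stim1 peaks listed had 2 copies of the core in its window, and the other peaks 1.
Itpr1, intron 53, chr6:108451617-108451657, minus strand: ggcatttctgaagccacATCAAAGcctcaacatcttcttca
Itpr1, intron 55, chr6:108462270-108462310, minus strand: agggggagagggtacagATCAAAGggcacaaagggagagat
Itpr2, past the 3′ end, chr6:146056221-146056261, plus strand: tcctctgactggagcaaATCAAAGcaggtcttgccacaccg
Itpr3, within Ggnbp1, chr17:27149423-27149463, minus strand: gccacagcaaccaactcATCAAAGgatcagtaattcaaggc
Itpkb, upstream, chr1:182238114-182238154, minus strand: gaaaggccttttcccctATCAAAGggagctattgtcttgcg
Itpkb, intron 2, chr1:182340590-182340630, minus strand: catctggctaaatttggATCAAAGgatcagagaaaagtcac
Stim1, intron 1, chr7:109463944-109463984, plus strand: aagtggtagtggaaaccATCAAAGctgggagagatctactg
Stim1, intron 1, chr7:109470644-109470684, plus strand: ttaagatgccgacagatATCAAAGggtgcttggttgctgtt
Orai1, Morn3 promoter, chr5:123488067-123488107, minus strand: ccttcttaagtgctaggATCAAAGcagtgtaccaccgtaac
Atp2b4, intron 20, chr1:135608082-135608122, plus strand: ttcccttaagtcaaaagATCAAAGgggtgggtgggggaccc
A G followed the printed core in 6 of these 10, and in 34.8% of the 1940 high-confidence peaks with the core. With so few cores this difference was not tested. The middle of the core lay 3 to 84 bp from the summit with a median of 33 bp, and over all such peaks the median was 18 bp.

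The 10 peaks under the fold minimum lay in the windows of 6 genes and had fold enrichments from 2.99 to 3.90, with pileups from 19 to 34 fragments. At 5 of them the pileup was within 1 Poisson SD of the minimum, as it was at 19 of the 102 above it. The closest below were an Itpkb intron 2 peak with the exact core, at 3.90 (2.55 to 5.72), and an Orai2 peak at 3.88. The closest above were a Stim2 intron peak and the Orai2 promoter peak, both at 4.05. At the edge of the window, peaks just left out stood 102 kb from Orai1 (fold enrichment 5.99), 103 kb from Itpr2 (5.76) and 104 kb from Itpkb (12.2), and the farthest taken in stood 98.1 kb from Orai1 (11.5) and 92.3 kb from Atp2b4 (20.6).

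To place the 9 genes in their pathway, 55 other genes of calcium signalling were looked up, and 54 were found in the annotation. A high-confidence peak lay in the window of 50 of the 54 and in the own promoter of 35 (64.8%), and a peak of 20 or more in the window of 16 (29.6%). The backgrounds are those given above for all protein-coding genes, 75.2%, 32.8% and 19.3%. Calmodulin, calcineurin and their partners had an own promoter peak in 12 of 13 genes, the NFAT factors in 4 of 4 and the genes of mitochondrial calcium uptake in 4 of 4. The ryanodine receptors and the SERCA pumps of the store had one in 2 of 6 genes, and the other genes of export in 1 of 4. The counts were 1 of 5 for the phospholipases, 4 of 6 for other enzymes of IP3 metabolism, 5 of 10 for calcium entry and its regulators, and 2 of 2 for potassium channels. The genes with no high-confidence peak in the window were Plcb1, Ryr3, Tmem110 and Slc8a1.

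Within the gene itself, strong peaks of this wider list were found in P2rx7 (fold enrichment 41.8), an ATP-gated cation channel, in Ppp3ca (32.4), the catalytic subunit of calcineurin, in Plcg1 (29.2) and Plcg2 (27.1), the phospholipases that make IP3, and in Nfatc1 (21.1). Calm3 had one at its own start site (24.6). For P2rx4, next to P2rx7, the strong peak was the same one. For Vdac1, Kcnn4, Rcan3, Trpv2, Tmem66, Cabin1, Atp2a1 and Ryr1 the strong peak of the window lay outside the gene and closer to another protein-coding start site. For Vdac1 that start site was that of Tcf7, the gene of Tcf1 itself, with a fold enrichment of 142.

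**Figure D5:**
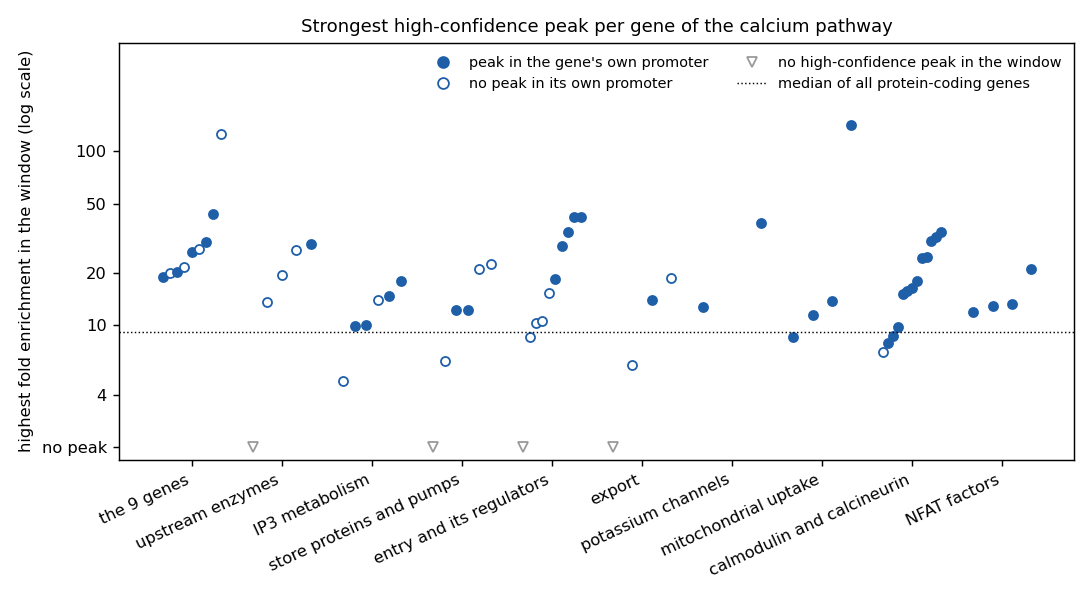
Highest fold enrichment (log scale) of a high-confidence peak in the window of each gene, for the 9 genes and for 54 other genes of calcium signalling by role. Filled points have a high-confidence peak in their own promoter, triangles have no such peak in the window, and the dotted line is the median of all protein-coding genes, 9.19. The 9 genes ran from 19 to 126.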

How the data were processed

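Naïve CD8+ T cells were profiled by Tcf1 ChIP-seq in 1 WT and 1 Tcf1-deficient library. Per the submitters' processing notes and the file headers, reads were checked with FastQC, aligned to mm9 with Bowtie2 2.2.5 and peaks called with MACS2 2.1.1.20160309, Tcf1-deficient as control, keeping 79.6% and 76.5% of fragments. The deposited signal (pileup) is WT coverage at the summit. The deposited fold enrichment is a ratio with a pseudocount of 1. The deposited −log10 p and −log10 q are the caller's own values, which compare the libraries and not the genotypes. The authors' positions are 1-based.

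The control level was computed back from pileup and fold enrichment. Python 3.11 with scipy gave Poisson intervals for pileups and exact binomial intervals for shares, at 95%. The Poisson intervals cover counting error only. Intervals of shares and medians treat the peaks as independent draws. Membership, motif and interval code was tested on simulated data. Sequences came from NCBIM37, which is mm9.

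Members and gene lists were chosen with earlier results of these data known. Peaks were named when strongest in their window, at a fold enrichment of 20 or more, in an own promoter, with the exact core, or next to a limit. Other peaks given in the account of each gene were chosen after their values were seen. A "nearest" gene is by distance alone, and gene expression was not measured here. A position-weight matrix was not used here.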

Additional observations from a re-analysis of the deposited data

How the results depend on the processing

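Of 90 values recomputed under an alternative, 78 stayed within the interval of the reported value, or within 1.5 times a count. Many of these could hardly move, so the tally does not measure robustness. Ranking by pileup gave the same strongest peak for each gene. Taking any peak that overlapped a window gave the same 112 peaks, 102 of them high-confidence. The median control level stayed at the floor of 5.42 under each fold minimum. Most other alternatives took part of the same peaks, so their values were not independent of the reported ones. With a window from 50 kb upstream to the gene end, the share of peaks nearest to a start site of the gene was 51.4%, the promoter share 17.1%, and the strongest Itpr2 peak had a fold enrichment of 17.5, since the distal peak lies past the gene, so that Itpr2 was no longer first among the 9 genes. A fold minimum of 5 gave a median fold enrichment of 9.36. A minimum of 8 gave 12.5 over 50 peaks, fewer peaks by construction. All deposited peaks with a fold enrichment of at least 8 had a median of 12.3. The 6-base core was found at 28.4% of peaks and the reversed core at 1.96%. Without the pseudocount the median control level was 6.31. In an alternative chosen after seeing the data, keeping only peaks in the body of the gene or nearest to its protein-coding start left 63 high-confidence peaks, a promoter share of 7.94% and a strongest Orai1 peak of 8.57. No replicate could be left out, and no paired analysis was possible because each group had 1 library. Peaks within 1 Poisson SD of the fold minimum could not be placed on either side of it, and control levels under the floor of 5.42 fragments were not seen.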
